A study of Capra hircus with 9 samples.

Results

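The 46 genes described here encode the machinery that copies DNA before a cell divides, from the proteins that mark replication origins to the enzymes that supply deoxynucleotides. They were taken by symbol from the deposited table of 23499 genes, and all 46 were found in it. The samples were mammary gland tissue of 9 healthy Laoshan dairy goats of the third parity, taken after slaughter, with 1 RNA library per goat. The groups were 3 goats in late lactation (LL, 240 days postpartum), 3 in the dry period (DP, 300 days postpartum) and 3 in late gestation (LG, 140 days after mating). Each group held different goats, none of which received a treatment named in the labels, and the tissue was sequenced whole, without sorting of cells. In whole tissue, fewer dividing cells and less RNA of a gene per dividing cell cannot be told apart.

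Replication begins with licensing, in which the origin recognition complex (ORC), CDC6 and CDT1 load the MCM2-7 helicase on DNA, and geminin (GMNN) holds CDT1 in check afterwards. CDC45 and the GINS proteins then turn MCM2-7 into the active helicase, DNA polymerase alpha with its primase lays down primers, and polymerases delta and epsilon extend them on the sliding clamp PCNA, which the RFC complex loads. RPA covers the single-stranded DNA, FEN1 and LIG1 join the lagging strand fragments, and thymidylate synthase (TYMS), thymidine kinase (TK1) and ribonucleotide reductase (RRM1 and RRM2) make the precursors. Many of these genes are known to be transcribed mainly in dividing cells, and the mammary epithelium is known to grow during gestation.

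The values are FPKM, fragments per kilobase of transcript scaled to the mapped fragments of the library, divided here by a scaling factor per library because the summed FPKM and the level of milk protein genes differed between the stages. The milk protein genes CSN2 and LALBA together held 164083 to 264982 scaled FPKM in LL, 14.9 to 35.9 in DP, then 3853 to 5312 in LG, and the luminal keratin KRT8 was present in all 9 libraries at 66.3 to 154 scaled FPKM. The scaling factors were 0.496 to 0.604 in LL, 1.44 to 1.52 in DP, then 1.19 to 1.31 in LG. Differences are given on the log2(scaled FPKM + 1) scale, which understates the change of genes at low levels. A gene was called when limma gave a Benjamini-Hochberg adjusted p under 0.05 over the 14701 genes tested and the log2 fold change was 1 or more in size. Of the 46 members 45 entered the test, and GINS2, at 0.08 to 0.57 deposited FPKM, did not reach 0.5 FPKM in 3 libraries.

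Both of the following features of the deposited values touch the members and were found in the table itself. First, 404 pairs of neighbouring genes differed by exactly 1.0, 1.3 and 1.5 FPKM in the LL libraries, 1.0, 1.5 and 1.5 in DP, then 1.5, 1.2 and 1.0 in LG, among 143448 pairs compared, and the next most common unequal set of differences occurred in 5 pairs. The member POLD3, a subunit of polymerase delta, was deposited as the neighbouring gene LOC108637662 plus exactly these amounts in every library. All 9 values lie at or above the amounts for 10522 genes, 20 of them members, and 26 members are below them in at least 1 library and so cannot carry the whole set. Whether the other 19 members that reach the amounts carry them is not known.

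Second, 454 pairs differed by exactly these amounts in all 6 DP and LG libraries, and 51 of them did not do so in LL. In 50 of the 51 the lower gene was deposited in all 3 LL libraries below the level that its linked gene, less the amounts, would give. The medians over these 50 pairs were 0.14, 0.14 and 0.135 FPKM deposited in LL1, LL2 and LL3, against 0.725, 0.69 and 0.925 FPKM from the linked gene. The same search with another stage left out found 0 of 403 pairs that did not match in DP and 6 of 410 in LG, and in 4 of these 6 the lower gene was too low in all 3 LG libraries, at up to 0.57 FPKM. None of the 45 members tested had all 3 LG values in that range. Few genes were listed just under the amounts in both LL and LG: LL1 held 762 genes between 0.2 and 0.3 FPKM, 33 between 0.7 and 0.8 and 654 between 1.1 and 1.2, and LG2 held 686, 45 and 94 in the same bins and 245 between 1.4 and 1.5. The scarcity of values is thus not particular to LL, whereas pairs that did not match were more frequent in LL (51 of 454) than in LG (6 of 410). Of the members tested 21 of 45 had all 3 LL values at or under 0.68 FPKM, the highest of the lower genes in those pairs, against 18.9% of all genes tested. Their LL values may therefore be too low, and none of these 21 has a linked gene in the table that shows by how much. POLD3, the only member with a linked gene, is not among them.

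**Figure D1:**
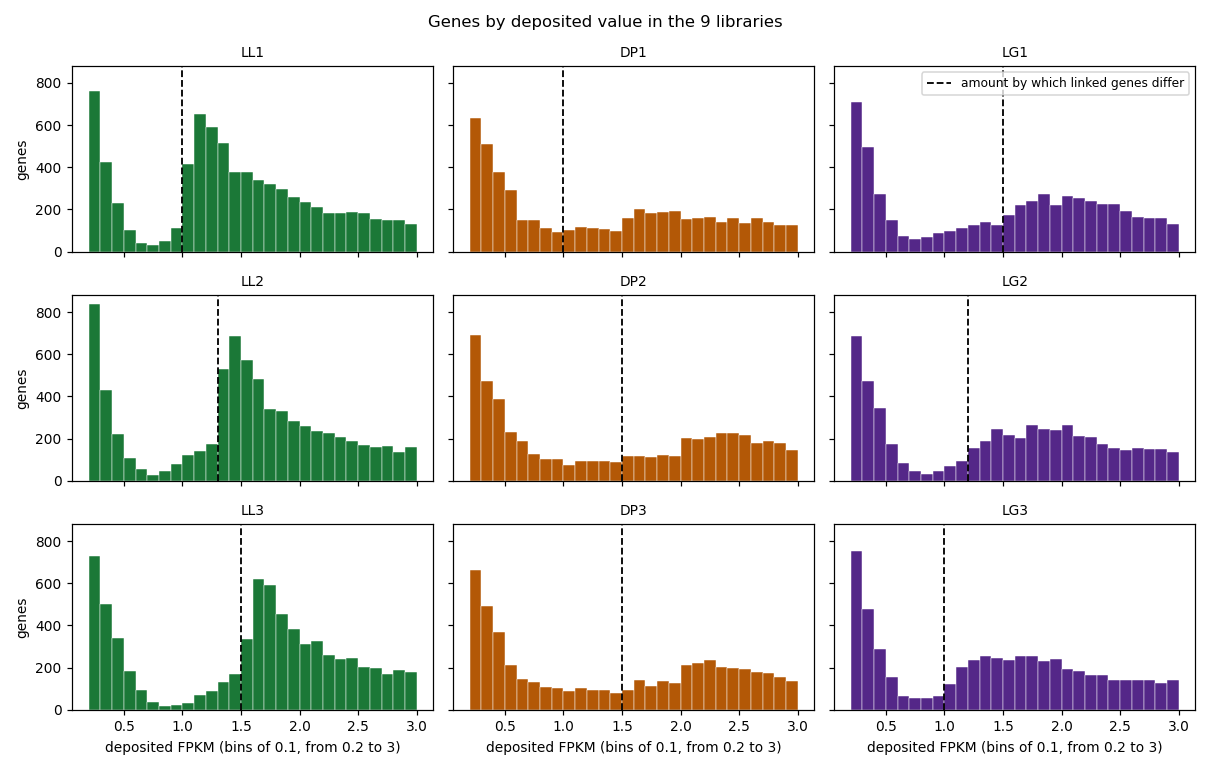
Number of genes in each bin of 0.1 deposited FPKM, from 0.2 to 3 FPKM, in the 9 libraries (LL, DP and LG from left to right), with the amount found between linked genes as a dashed line. A stretch with few genes lies below the line in LL and LG (33 genes between 0.7 and 0.8 FPKM in LL1, 45 in LG2), and the rise that follows is steepest in LL.

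Every comparison was therefore made on the deposited values, again with the amounts subtracted from all genes that reach them, and again with the low LL values raised to the medians of the linked genes or to their highest values, which were 1.22, 1.54 and 1.90 FPKM. The raised values are imposed and have no spread of their own, so they show only whether a call depends on the low values. They neither bound nor measure the effect, since no member with low LL values has a linked gene. Comparisons of LG with DP hold no LL library and are linked to LL by the shared fit and scaling, and the 4 LG pairs above show that LG is not wholly free of such values.

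Between LG and DP, the stages of a growing and of a non-lactating gland, 7 members were called higher in LG and 0 lower, where 6.38% of all genes tested were called higher and 6.89% lower. They were the loading factor CDC6, the helicase subunits MCM2 and MCM5, the polymerase delta subunit POLD2, the clamp loader subunit RFC4, and the precursor enzymes RRM2 and TK1. With the adjusted p alone, without the limit on size, 20 members passed in the direction of LG and 0 in that of DP, where 18.4% and 16.4% of all genes did. All 3 LG values lay above all 3 DP values in 24 of 45 members against 25.1% of all genes, and the reverse held for 0 members against 22.8%. The median log2 fold change of the members was 0.37 and that of all genes 0.01. The same 7 members were called with the amounts subtracted and with the LL values raised in either way. These readings test the 7 calls little. The subtraction changes the values of only 2 of the 7, POLD2 and RFC4, and the raising acts only through the shared fit and scaling. CDC6 was lost without DP replicate 2, where its log2 fold change was 0.998.

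Between LG and LL, 23 of 45 members were called higher in LG and 0 lower, where 10.7% of all genes were called higher and 6.61% lower. The median log2 fold change of the members was 1.01 and that of all genes 0.02. With the adjusted p alone 29 members passed for LG above LL and 3 below, where 25.6% and 24.6% of all genes did. The stages did not overlap, with LG higher, in 32 members against 31% of all genes, and with LG lower in 4 against 30.2%. Of the 23, however, 18 are among the members with low LL values. With those values raised to the medians of the linked genes 11 of the 23 remained, namely MCM2 to MCM7, POLA1, POLD2, RFC5, FEN1 and TYMS, and RPA2 was added, so that 12 members were called where 4.9% of all genes were. Raised to the highest values, MCM3, MCM5, MCM6, MCM7 and POLD2 remained, and RPA2 and RRM1 were added, where 4.89% of all genes were called higher. With the amounts subtracted 19 of the 23 remained. MCM3, MCM5, MCM6, MCM7 and POLD2 were called under all 4 readings of the table, and no member was called lower in LG under any. These 5 are not among the members with low LL values, so the raising left their own values unchanged and does not test them. MCM3 and MCM5 are also below the amounts in at least 1 library, so the subtraction left their own values unchanged too.

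Between DP and LL, 10 members were called higher in DP, then 1 lower, where 13.8% and 8.79% of all genes were. The 10 were ORC3, MCM4, POLA1, PRIM1, POLD1, RFC2, RFC5, FEN1, LIG1 and TYMS, and all 10 are among the members with low LL values. With the adjusted p alone 21 passed for DP above LL and 8 below, where 28.2% and 28.6% of all genes did, and the stages did not overlap in 23 members with DP higher (32.5% of all genes) and in 8 with DP lower (33.4%). RFC5 alone of the 10 was still called with those values raised to the medians, and none was with them raised to the highest values, while 9 of the 10 were with the linked amounts subtracted. CDC6, CDC45 and RRM2 were called lower in DP with the highest values. The member called lower in DP was RPA3, the small subunit of RPA, and it was called neither without LL replicate 2 nor without DP replicate 3, at log2 fold changes of -0.95 and -0.98. With the low LL values raised in either way, which reaches RPA3 only through the shared fit and scaling, its call was also lost. With the amounts subtracted RPA3 was still called. The median log2 fold change was 0.30 for the members and 0.00 for all genes.

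Over all 3 stages, 19 members had every LG value above all values of both other stages, where 11% of all genes did. Of the 19, 14 have low LL values, and the count was 20 with the amounts subtracted, 17 with the low LL values raised to the medians and 13 with them raised to the highest values (9.99%, 11.4% and 12.0% of all genes). No member had every DP value above the rest (13.4% of all genes), and RPA3, GINS3, POLE and MCM8 had every LL value above the rest (20.1% of all genes), of which GINS3 and MCM8 no longer did with the amounts subtracted. With the low LL values raised to the medians, MCM8, POLE and RPA3 did (17.4% of all genes). Raised to the highest values, 7 did (17.2%). Of these, MCM8 and POLE hold deposited LL values, and the other 5 (CDC45, CDC6, GINS4, ORC6 and POLA2) hold imposed ones.

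**Figure D2:**
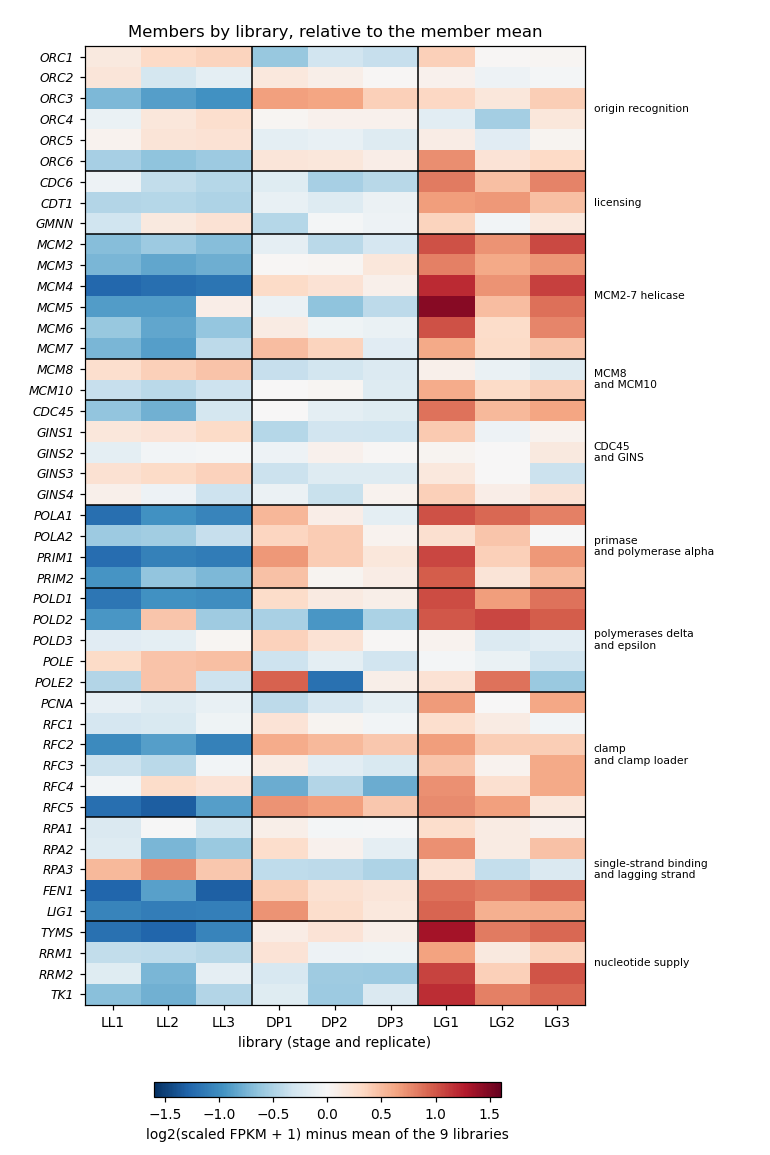
Level of each of the 46 members in the 9 libraries as log2(scaled FPKM + 1) less the mean of that member over the libraries, grouped by step, with red above and blue below the mean. Most rows of the helicase, polymerase and precursor steps are darkest red in the LG columns, while the blue of many LL columns rests on values that the linked genes place in doubt.

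**Figure D3:**
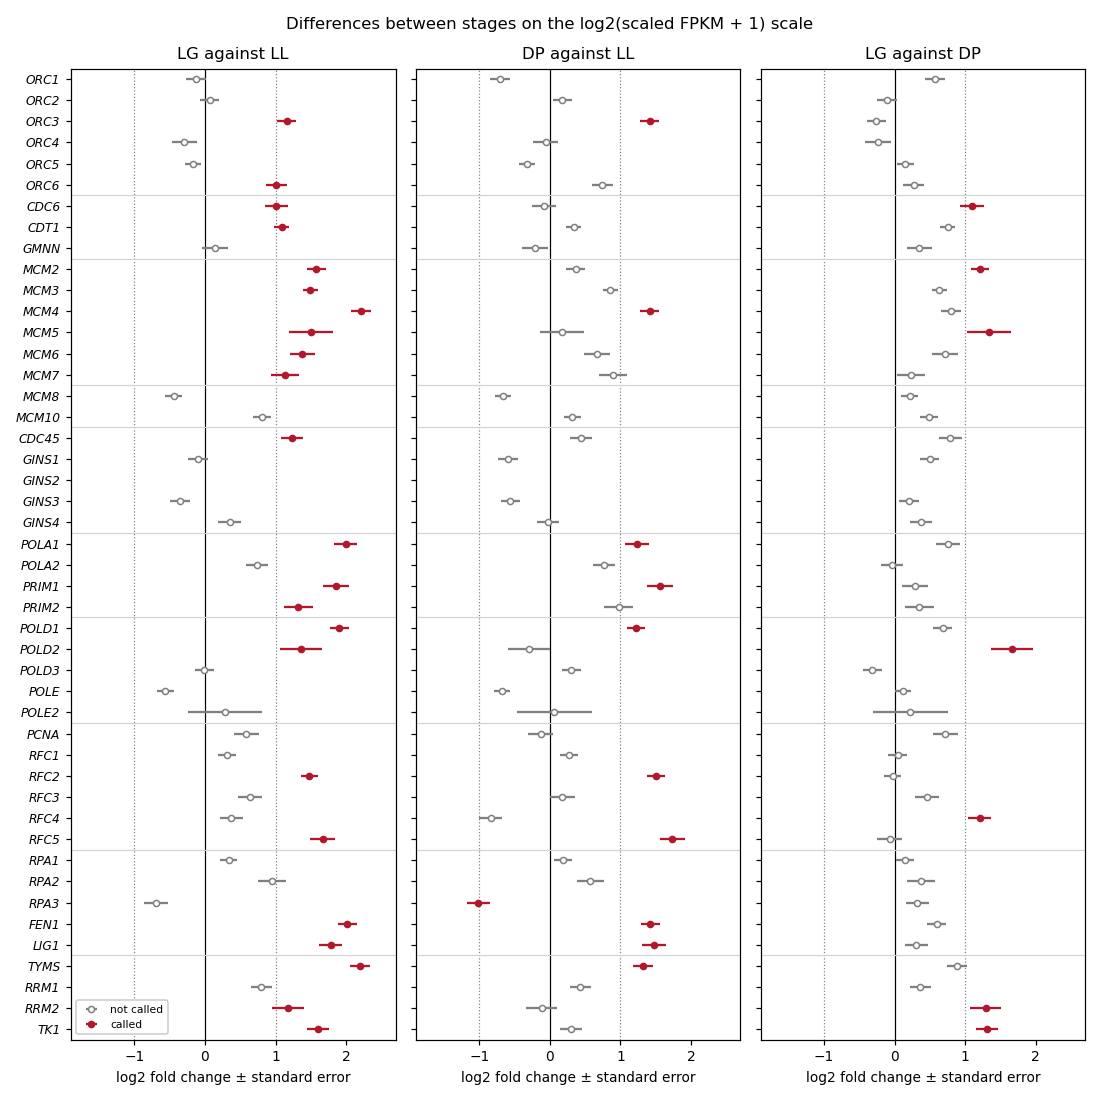
Log2 fold change of each member with its standard error in the 3 comparisons, from limma on 3 libraries per stage, with called members filled and dotted lines at a change of 1 in size. All 7 called members lie to the right in LG against DP, as do the 23 called in LG against LL, and GINS2 was not tested.

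The origin recognition complex, which marks the sites where replication starts, was the step with the smallest median log2 fold change between LG and DP, at 0.02. ORC4, the member of this step with the highest mean, measured 5.88, 7.38 and 7.93 scaled FPKM in LL, 6.56, 6.77 and 6.74 in DP, then 5.58, 4.08 and 7.37 in LG. Its 3 stages overlapped. ORC3 measured 0.322, 0.181 and 0.116 in LL, 2.45, 2.37 and 1.83 in DP, then 1.73, 1.47 and 1.85 in LG, and ORC6 measured 0.181, 0.0906 and 0.133, then 0.938, 0.932 and 0.829, then 1.84, 0.984 and 1.12. DP and LG overlapped in ORC3, and in ORC6 all 3 LG values were above DP.

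ORC3 was called higher than LL in LG (log2 fold change 1.16 ± 0.13 SE, adjusted p = 0.00011, limma) and in DP (1.41 ± 0.13, adjusted p = 2.6e-05), and both calls were lost with its LL values raised to the medians, at 0.22 and 0.49. The log2 fold change of ORC6 between LG and LL was 1.01, which became 0.84 without LG replicate 1, 0.98 to 0.99 without any 1 of the DP libraries and -0.01 with its LL values raised. ORC1, the ATPase of the complex, was at -0.13 on the deposited values and at 0.81 with the amounts subtracted, so its direction against LL depends on the reading of the table, while LG was above DP in both (0.57 and 0.81, adjusted p = 0.012 and 0.00073). The values for ORC2 and ORC5 were 0.07 and -0.17 between LG and LL and -0.11 and 0.15 between LG and DP, none with an adjusted p under 0.05.

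In licensing, the loading factors CDC6 and CDT1 were highest in late gestation. CDC6 measured 0.443, 0.163 and 0.116 scaled FPKM in LL, 0.335, 0.0557 and 0.118 in DP, then 1.71, 1.13 and 1.66 in LG. CDT1 measured 0.584, 0.598 and 0.563 in LL, 1.02, 0.911 and 1.07 in DP, then 2.49, 2.55 and 2.06 in LG. In both genes every LG library was above every DP library, and in CDC6 LL and DP overlapped. The change between LG and DP was 1.09 ± 0.17 for CDC6 (adjusted p = 0.0011) and 0.75 ± 0.11 for CDT1 (adjusted p = 0.0009), the latter under the limit on size.

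Against LL both were called on the deposited values, CDC6 at 1.01 and CDT1 at 1.09, and neither with the LL values raised, at 0.11 and 0.55. The call of CDC6 was also lost without LL replicate 3 (0.97), LG replicate 1 (0.94), LG replicate 3 (0.94) or any 1 of the DP libraries (0.98 to 0.99), and both calls with the amounts subtracted (0.88 and 0.87). GMNN, the inhibitor of CDT1, measured 3.08, 4.70 and 4.97 in LL, 2.72, 4.01 and 3.81 in DP, then 5.55, 3.96 and 4.75 in LG, with overlap of all stages and no comparison passing. The ratio of CDT1 to GMNN was 0.227 to 0.373 in the DP libraries and 0.434 to 0.645 in LG, and 0.308 to 0.492 and 0.517 to 0.856 with the amounts subtracted. The LG libraries were above the DP libraries in this ratio under both readings.

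The MCM2-7 helicase, which unwinds the DNA at the fork, has 6 subunits. Of these, 2, MCM2 and MCM5, were called higher in LG than in DP, where 6.38% of all genes were. Of the 6, all but MCM7 passed for LG above DP with the adjusted p alone, where 18.4% of all genes did. All 6 were called higher in LG than in LL on the deposited values, where 10.7% of all genes were. With the low LL values raised to the highest values 4 of them were, where 4.89% of all genes were. None of these 4 is among the members with low LL values, so the raising left their own values unchanged. MCM2 measured 0.766, 0.888 and 0.762 scaled FPKM in LL, 1.56, 1.09 and 1.34 in DP, then 4.71, 3.66 and 4.89 in LG. MCM3 measured 2.34, 2.10 and 2.22, then 4.61, 4.66 and 5.26, then 8.69, 7.45 and 8.01. MCM4 measured 0.161, 0.199 and 0.232, then 2.41, 2.26 and 1.92, then 5.34, 3.57 and 4.91. On the deposited values the stages did not overlap in these 3 genes and stood in the order LL, DP, LG. MCM2 and MCM4 have low LL values, so the place of LL in their order is in doubt. Between DP and LL, MCM2 was at 0.36 (adjusted p = 0.036) as deposited and at 0.10 (adjusted p = 0.60) with the amounts subtracted. MCM3 went from 0.86 to 0.47 and MCM4 from 1.41 to 1.22, both with an adjusted p under 0.05.

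MCM5 measured 1.47, 1.49 and 3.98 scaled FPKM in LL, 3.31, 1.95 and 2.43 in DP, then 11.7, 5.50 and 7.47 in LG. MCM6 measured 3.45, 2.79 and 3.41, then 6.37, 5.45 and 5.28, then 12.7, 7.24 and 10.6. MCM7, the most abundant subunit, measured 8.0, 7.05 and 10.1, then 19.9, 18.1 and 12.2, then 21.6, 17.5 and 19.3. LL and DP overlapped in MCM5, DP and LG overlapped in MCM7, and all stages were apart in MCM6.

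Between LG and DP, MCM2 changed by 1.21 ± 0.13 (adjusted p = 0.00019) and MCM5 by 1.33 ± 0.31 (adjusted p = 0.0096), both called. MCM4, MCM6 and MCM3 were at 0.80, 0.71 and 0.63 with adjusted p of 0.0022, 0.014 and 0.0019, and MCM7 was at 0.23 (adjusted p = 0.39). Between LG and LL the changes ran from 1.13 ± 0.20 for MCM7 (adjusted p = 0.0015) to 2.21 ± 0.14 for MCM4 (adjusted p = 5.1e-06). MCM4 and MCM2 have low LL values and were at 1.28 and 1.24 with these raised to the medians and at 0.75 and 0.70 with them raised to the highest values, under the limit on size. MCM6 reaches the amounts in all libraries, and their subtraction moved it from 1.38 to 2.14 against LL and from 0.67 to 1.29 for DP against LL, where it was then called. MCM7 was called in DP against LL without LL replicate 3 (1.02) or DP replicate 3 (1.10) and not on all libraries (0.90).

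**Figure D4:**
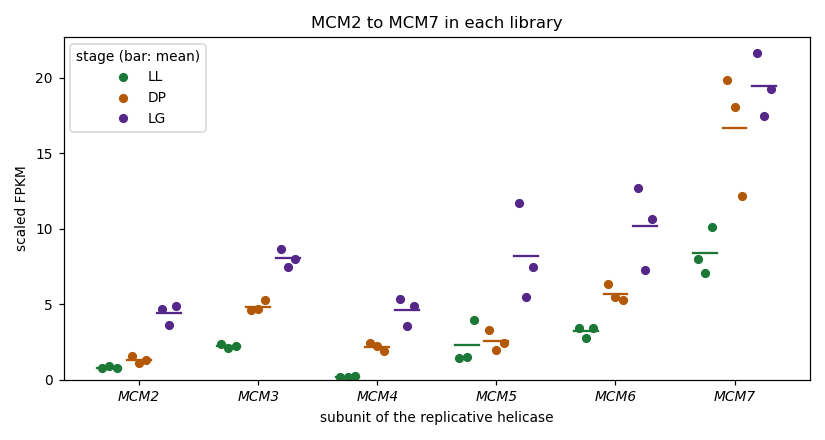
Scaled FPKM of the 6 subunits of the MCM2-7 helicase in each library, with a bar at the mean of the 3 libraries of a stage. The LG points lie above the DP points in every subunit but MCM7, where DP spans 12.2 to 19.9 and LG 17.5 to 21.6.

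The summed level of the 6 subunits was 33.3 ± 4.88 scaled FPKM in DP, then 54.9 ± 9.95 in LG (SD, n = 3), against 17.1 ± 3.22 in LL. MCM7 made up 42.8 to 54.0% of that sum in the DP libraries and 33.4 to 38.9% in the LG libraries, and 42.3 to 54.2% and 32.7 to 38.4% with the amounts subtracted. The highest subunit exceeded the lowest by a ratio of 9.09 to 16.6 in DP and of 3.94 to 4.89 in LG. The subunit levels, which are per length, were thus closer to each other in every LG library than in any DP library. The protein complex is known to hold 1 copy of each subunit, and MCM7 overlaps AP4M1 and a cluster of 3 microRNA genes in the table, whose reads a kit that does not mark strand cannot always tell from its own.

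MCM10, which helps to start the fork, and MCM8, a related helicase known for repair by recombination, moved differently. MCM10 was at 0.49 between LG and DP (adjusted p = 0.014) and at 0.81 between LG and LL (adjusted p = 0.0007), or 0.30 with its LL values raised to the medians. MCM8 measured 2.30, 2.56 and 2.77 scaled FPKM in LL, 1.13, 1.23 and 1.36 in DP, then 1.88, 1.54 and 1.38 in LG. Its LL values lay above all others as deposited. MCM8 reaches the amounts, and the change between LG and LL went from -0.45 (adjusted p = 0.011) to 0.24 (adjusted p = 0.061) with them subtracted.

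Of the factors that activate the helicase, CDC45 was higher in LG than in DP and the GINS genes varied less. CDC45 measured 0.101, 0 and 0.398 scaled FPKM in LL, 0.709, 0.529 and 0.481 in DP, then 2.09, 1.44 and 1.64 in LG, and it was listed at 0 in LL replicate 2. All LG values were above all DP values. The change was 0.79 ± 0.16 between LG and DP (adjusted p = 0.0049) and 1.23 ± 0.16 between LG and LL (adjusted p = 0.00028), and the latter was at 0.24 with the LL values raised to the medians. GINS3, the GINS member with the highest mean, measured 2.74, 2.88 and 3.06 in LL, 1.48, 1.73 and 1.73 in DP, then 2.55, 2.17 and 1.49 in LG, with overlap of DP and LG.

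GINS1 was at 0.50 between LG and DP (adjusted p = 0.022). Against LL, GINS1 and GINS3 were at -0.10 and -0.36 on the deposited values and at 0.76 and 0.17 with the amounts subtracted, so that their direction against LL depends on the reading of the table. GINS4 was at 0.37 between LG and DP and 0.35 between LG and LL, without an adjusted p under 0.05.

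DNA polymerase alpha and its primase, which lay down the primers, had 0 of 4 genes called between LG and DP. With the adjusted p alone 1 of 4 passed, for LG above DP. Of all genes 6.38% were called higher and 18.4% passed in that direction, and 4 genes are too few to set against these shares. POLA1, the catalytic subunit, measured 0.302, 0.526 and 0.447 scaled FPKM in LL, 3.32, 2.23 and 1.70 in DP, then 5.06, 4.67 and 4.27 in LG. PRIM1, the catalytic primase subunit, measured 0.161, 0.272 and 0.248, then 3.37, 2.57 and 2.06, then 4.66, 2.53 and 3.39. PRIM2, the large primase subunit, measured 0, 0.236 and 0.166, then 1.65, 0.981 and 1.08, then 2.75, 1.21 and 1.72. LG lay above DP without overlap in POLA1 and not in the primase genes, and all LL values as deposited were below both stages.

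Between LG and DP the change was 0.75 ± 0.17 for POLA1 (adjusted p = 0.0074), while PRIM1, PRIM2 and POLA2 were at 0.29, 0.35 and -0.04 with adjusted p of 0.25, 0.21 and 0.87. Against LL, LG was called in POLA1 (1.99), PRIM1 (1.86) and PRIM2 (1.32), and POLA2, the regulatory subunit, was at 0.73 (adjusted p = 0.0039). With the LL values raised to the medians these became 1.31, 0.96, 0.30 and 0.08, with POLA1 the only 1 of the 4 still called. In DP against LL, PRIM2 was at 0.97 and was called without LL replicate 2 (1.09), LL replicate 3 (1.03) or DP replicate 2 (1.02).

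Of the polymerases that extend the new strands, POLD1 and POLD2 of delta were higher in LG than in DP, and neither subunit of epsilon passed the test. POLD1, the catalytic subunit of delta, measured 0.0604, 0.199 and 0.182 scaled FPKM in LL, 1.90, 1.61 and 1.52 in DP, then 3.87, 2.73 and 3.32 in LG. POLD2, its regulatory subunit, measured 2.64, 8.39 and 3.66, then 3.83, 2.63 and 3.87, then 12.8, 13.6 and 12.5. In both genes LG stood above DP without overlap, and in POLD2 LL replicate 2 stood far above the other LL libraries. Between LG and DP the changes were 1.66 ± 0.30 for POLD2 (adjusted p = 0.0024), the largest among the members in this comparison, and 0.68 ± 0.13 for POLD1 (adjusted p = 0.0037).

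Against LL, POLD2 was called in LG at 1.36 ± 0.30 (adjusted p = 0.0043) and at 1.83 with the amounts subtracted. POLD1 was at 1.90 ± 0.13 (adjusted p = 8.4e-06) and at 0.90 with its LL values raised to the medians. POLD3 was at -0.01 between LG and LL and -0.32 between LG and DP as deposited, and at 0.13 and -0.32 with the amounts subtracted. No adjusted p was under 0.05 in either comparison. Less the amounts, POLD3 equals its neighbour LOC108637662 in every library, so its values may not be its own. POLE, the catalytic subunit of epsilon, was at 0.12 between LG and DP (adjusted p = 0.47) and at -0.56 between LG and LL (adjusted p = 0.0035), or -0.14 with the amounts subtracted (adjusted p = 0.33). POLE2 varied more among replicates than any other member, from 0.633 to 6.20 scaled FPKM in DP. It followed its neighbour LRR1 on the other strand at a Pearson r of 0.993 over the 9 libraries, which is a description of libraries that share depth, and its values may not be its own.

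PCNA, the sliding clamp, was the most abundant member outside the helicase and the RPA genes. On the deposited values it was higher in late gestation. It measured 9.15, 8.63 and 9.18 scaled FPKM in LL, 7.28, 8.23 and 8.94 in DP, then 16.7, 10.1 and 16.1 in LG. All LG libraries were above the other 6 as deposited, and no longer so with the amounts subtracted. The change was 0.72 ± 0.18 between LG and DP (adjusted p = 0.013) and 0.59 ± 0.18 between LG and LL (adjusted p = 0.022), both under the limit on size. PCNA reaches the amounts, and with them subtracted these became 0.83 (adjusted p = 0.014) and 0.46 (adjusted p = 0.098).

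Of the clamp loader subunits, RFC4 separated LG from DP, and RFC2 and RFC5 did not. RFC2 measured 0.282, 0.417 and 0.232 scaled FPKM in LL, 2.93, 2.73 and 2.50 in DP, then 3.14, 2.44 and 2.41 in LG. RFC4 measured 6.08, 7.98 and 7.49, then 3.23, 4.29 and 3.23, then 11.1, 7.72 and 10.1. RFC5 measured 0.383, 0.272 and 0.729, then 4.22, 4.03 and 3.27, then 4.37, 4.01 and 2.62. RFC4 was lowest in DP, and in RFC2 and RFC5 DP and LG overlapped. RFC4 changed by 1.21 ± 0.16 between LG and DP (adjusted p = 0.00058) and by -0.84 ± 0.16 between DP and LL (adjusted p = 0.0021), which became -1.10 and a call with the amounts subtracted.

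RFC2 and RFC5 were at -0.03 and -0.07 between LG and DP. Between LG and LL they were called at 1.48 and 1.67, and with their LL values raised to the medians RFC5 was still called at 1.01 and RFC2 was at 0.67. RFC3 was at 0.64 between LG and LL (adjusted p = 0.013) and 0.46 between LG and DP (adjusted p = 0.069). With the amounts subtracted these were 0.31 (adjusted p = 0.21) and 0.50 (adjusted p = 0.066). RFC1, the large subunit, was at 0.31 and 0.04, without an adjusted p under 0.05. In the table RFC1, RFC4 and RFC5 overlap WDR19, EIF4A2 and WSB2, and how reads there were divided is not given in the sources used here.

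Among the genes for single-stranded DNA, RPA1 varied little, and RPA3 was highest in late lactation. RPA1, the large subunit of RPA, measured 8.84, 10.5 and 8.56 scaled FPKM in LL, 11.3, 10.3 and 10.5 in DP, then 13.1, 11.7 and 11.1 in LG. RPA3 measured 9.41, 11.3 and 8.86, then 4.48, 4.43 and 4.17, then 7.55, 4.61 and 5.24. LG and DP did not overlap in RPA3, and LL was above both. The changes of RPA3 were -1.01 ± 0.17 between DP and LL (adjusted p = 0.00078), -0.69 ± 0.17 between LG and LL (adjusted p = 0.0069) and 0.32 ± 0.17 between LG and DP (adjusted p = 0.16).

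RPA1 was at 0.33 between LG and LL (adjusted p = 0.051) and 0.15 between LG and DP. RPA2, the middle subunit, was at 0.95 between LG and LL (adjusted p = 0.003), just under the limit on size. It was called without LL replicate 1 (1.11) or LG replicate 2 (1.10) and with the amounts subtracted (1.84, and 1.36 for DP against LL). The 3 subunits, which work as 1 complex, therefore did not move in the same direction between LG and LL.

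FEN1 and LIG1, which trim and seal the fragments of the lagging strand, were listed lowest in late lactation. FEN1 measured 0.322, 0.743 and 0.282 scaled FPKM in LL, 3.16, 2.76 and 2.65 in DP, then 4.79, 4.63 and 5.01 in LG. LIG1 measured 0.222, 0.181 and 0.199, then 3.19, 2.09 and 1.87, then 3.87, 2.79 and 2.81. LG was above DP without overlap in FEN1 (0.59 ± 0.14, adjusted p = 0.0083) and overlapped it in LIG1 (0.30 ± 0.16, adjusted p = 0.18). Between LG and LL they were called at 2.02 and 1.78, and with the LL values raised to the medians FEN1 stayed called at 1.34 and LIG1 was at 0.85.

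The enzymes of nucleotide supply had the largest median log2 fold change between LG and DP of all steps, 1.09 over the 4 genes. TYMS, which makes thymidylate, measured 0.363, 0.290 and 0.497 scaled FPKM in LL, 2.38, 2.63 and 2.31 in DP, then 6.81, 4.54 and 4.90 in LG. TK1, the thymidine kinase of dividing cells, measured 0.383, 0.290 and 0.580, then 0.906, 0.466 and 0.864, then 3.95, 2.82 and 3.15. RRM2, the small subunit of ribonucleotide reductase, measured 1.03, 0.399 and 1.09, then 0.932, 0.564 and 0.543, then 3.89, 2.02 and 3.64. In all 3 genes every LG library was above every library of both other stages.

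TK1 changed by 1.31 ± 0.16 between LG and DP (adjusted p = 0.00031) and RRM2 by 1.29 ± 0.22 (adjusted p = 0.002), both called, and TYMS was at 0.88 ± 0.14 (adjusted p = 0.0015). RRM1, the large subunit, measured 5.16, 5.11 and 4.95 in LL, 8.38, 6.64 and 6.69 in DP, then 11.6, 8.02 and 9.35 in LG. Its DP and LG values overlapped (0.37 ± 0.15, adjusted p = 0.082). The ratio of RRM2 to RRM1 was 0.0813 to 0.111 in DP, then 0.252 to 0.389 in LG, and 0.0963 to 0.121 and 0.287 to 0.424 with the amounts subtracted, with no overlap of the stages in either. Against LL, TYMS, TK1 and RRM2 were called at 2.20, 1.60 and 1.18 and stood at 1.47, 0.90 and 0.84 with their LL values raised to the medians, so that TYMS alone of the 3 remained.

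The 7 members called higher in LG than in DP lie apart in the genome. By the coordinates of the deposited table, which names no build, RFC4 is at chr1:80128438-80141956, POLD2 at chr4:42997455-43005591, MCM5 at chr5:72314913-72333035 and RRM2 at chr11:87086303-87093341. CDC6 is at chr19:40182912-40193992 and TK1 at chr19:53179645-53192931, and MCM2 lies on an unplaced scaffold.

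**Figure D5:**
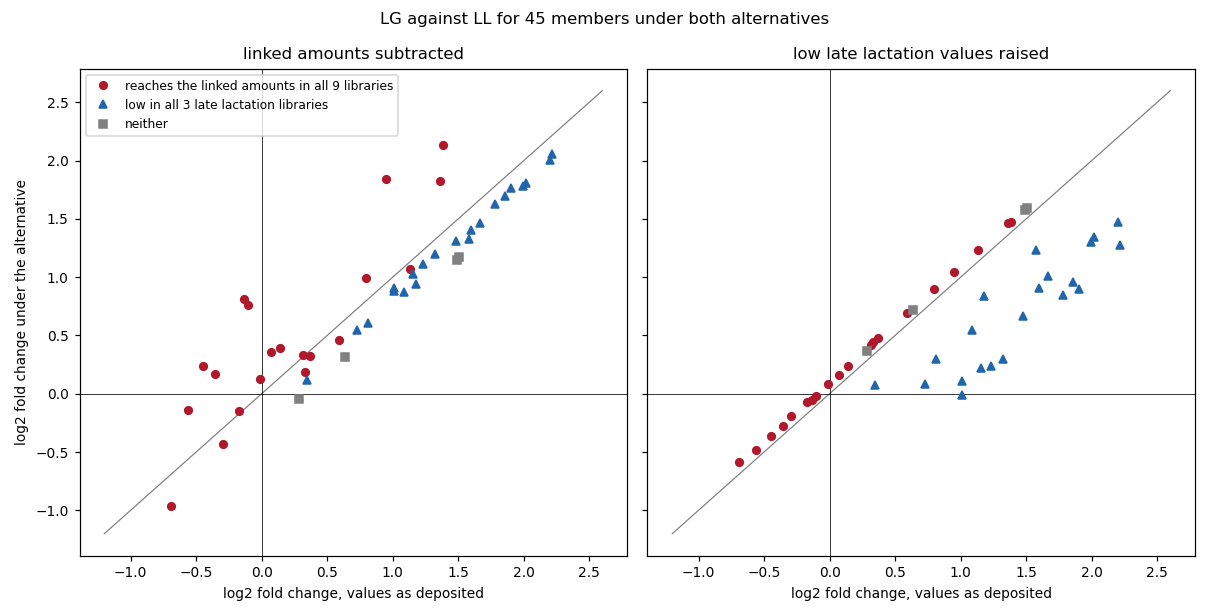
Log2 fold change between LG and LL of the 45 members tested, as deposited (horizontal) and with the linked amounts subtracted (left) or the low late lactation values raised to the medians of linked genes (right), with a grey line where both are equal. Members that reach the amounts move on the left, where 4 of them turn from below 0 to above it by at least 0.1 on both sides, and members with low late lactation values fall below the line on the right.

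Genes of the same pathway outside the members were read from a list of 60, of which 57 were tested. Between LG and DP, 2 were called higher and 0 lower: TOP2A, the topoisomerase that untangles replicated DNA, at 2.27 ± 0.24 and DUT, which keeps uracil out of DNA, at 1.02 ± 0.17. TOP2A measured 1.65, 1.00 and 0.829 scaled FPKM in DP, then 13.4, 6.66 and 8.78 in LG. With the adjusted p alone 15 of the 57 passed for LG above DP and 0 below, where 18.4% and 16.4% of all genes did. As 6.38% of all genes were called higher, 2 of 57 is a smaller share on the deposited values. With the amounts subtracted 5 were called higher and 0 lower, where 7.91% and 6.73% of all genes were, and 5 of 57 is a larger share.

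Between LG and LL, 5 were called higher, which were TOP2A (2.19), CDK2 (2.25), DCTPP1 (2.06), RNASEH2C (1.34) and WDHD1 (1.25), and 2 lower, which were CLSPN (-1.19) and CTPS1 (-1.73), where 10.7% and 6.61% of all genes were, both larger shares than those of the list. With the amounts subtracted 8 were called higher and 2 lower, where 11.7% and 9.8% of all genes were. The share called higher was then larger in the list. CDK2, DCTPP1 and WDHD1 have low LL values and were at 1.38, 1.36 and 0.24 with these raised to the medians, and with them raised to the highest values CDK2 and DCTPP1 were at 0.84 and 0.83 and no longer called. CLSPN, a fork protection factor, was thus lower in LG than in LL while the helicase was higher. The medians over the list were 0.24 between LG and DP and 0.28 between LG and LL, below those of the members.

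Markers of other cell types differed between the same stages. The summed level of 7 luminal markers was 347 to 652 scaled FPKM in DP, then 837 to 1003 in LG, with 1 of 7 called higher in LG, where 6.38% of all genes were. Their median log2 fold change was 0.14, and with the adjusted p alone 2 were higher and 1 lower in LG, where 18.4% and 16.4% of all genes were. The summed level of 9 leukocyte markers was 113 to 229 in DP, then 44.5 to 54.7 in LG, and 5 of the 7 tested were called lower in LG, where 6.89% of all genes were. Endothelial markers (5 genes) summed to 115 to 172 in DP, then 54.1 to 78.7 in LG, fibroblast markers (6 genes) to 445 to 1772 and 432 to 754, and basal markers (6 genes) to 136 to 455 and 226 to 305. Of these, 1 endothelial and 3 fibroblast markers were called lower in LG than in DP, and 1 basal marker higher. In LL the sums were 885 to 1154 for luminal, 227 to 874 for leukocyte, 97.4 to 127 for endothelial, 183 to 279 for fibroblast and 181 to 235 for basal markers, and the leukocyte sum was mostly JCHAIN of plasma cells, at 189 to 835. Gene by gene, 4 of 7 leukocyte, 5 of 6 fibroblast and 1 of 6 basal markers tested were called higher in DP than in LL. In the same comparison 1 leukocyte and 1 luminal marker were called lower. Of all genes 13.8% were called higher in DP and 8.79% lower. Adipocyte markers (4 genes) summed to at most 20.4 in any library with LEP at 0 in all of LL, and the erythroid gene ALAS2 was at 0 in all 9 libraries. The part of these cell types in the members' results was not tested.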

How the data were processed

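Reads from 9 unstranded TruSeq libraries were processed by the authors with FastQC, Trimmomatic, HISAT2 and SAMtools, and quantified with StringTie per their methods or HTSeq per the submitters' processing notes. The deposited table holds 1 value per gene and library, read here as FPKM computed by the authors, although it names neither unit nor genome build. It sums to 601250 to 1157015 per library, and read counts were not available here, so depth is unknown and no count test was run. Gene identifiers of all 46 members matched their symbols in the RefSeq table. Members and gene lists were chosen with earlier results of these data known. Values were divided by median-ratio factors from 15905 genes above 0 in every library, and 14701 genes with at least 0.5 FPKM in 3 libraries were fitted on log2(value + 1) with limma 3.58.1 in R 4.3.3, with a mean-variance trend, all 9 libraries in 1 fit, two-sided tests and Benjamini-Hochberg adjustment. Calls needed a log2 fold change of 1 or more in size beside an adjusted p under 0.05. Values per library were given for members called in any comparison and for the member with the highest mean of each step, and other members by their log2 fold change. Pathway genes were named where called in LG against LL or LG against DP. The code was tested on simulated data. Replicate numbers name goats, different ones in each stage. With 3 libraries per stage, p-values measure the spread between single goats. Subtracting the linked amounts and raising low LL values were chosen after seeing the data. The raised values were applied to 2784 genes tested, with scaling factors recomputed.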

Additional observations from a re-analysis of the deposited data

How the results depend on the processing

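The count of members called higher in LG against DP was 7 under every alternative run except quantile normalization (9), a pseudocount of 0.1 (10), a filter at 2 FPKM (6), the adjusted p alone (20) and leaving out 1 library (6 to 7). Of all genes 5.74% were called higher with quantile normalization and 8.52% with the pseudocount of 0.1. Without scaling, 7043 and 8348 genes were called for LG and DP against LL, since the median of all genes moved by 0.93 and 1.09 (and by -0.18 for LG against DP). The members' medians became 1.52 and 1.12. In DP against LL 27 of 45 members were then called higher and 0 lower, where 54.3% and 2.51% of all genes were. ORC4 (1.15), PCNA (1.12) and RPA3 (0.21) turned to higher in DP. With quantile normalization the medians were 0.84 for LG and 0.12 for DP against LL, with 0 members lower in DP, where 7.29% of all genes were. With a pseudocount of 0.1, 3912 genes were called for LG against LL, and the medians were 1.44 (LG against LL), 0.54 (LG against DP) and 0.50 (DP against LL). In DP 2 members were then lower than in LL, where 11.3% of all genes were. With the adjusted p alone, 7383, 5112 and 8358 genes passed for LG against LL, LG against DP and DP against LL, with 3 members lower in LG than in LL, and 21 higher and 8 lower in DP than in LL. Subtracting the linked amounts gave 2 members lower in DP than in LL, where 14.8% of all genes were, and a median of 0.11. Raising low LL values to the medians of linked genes gave 1627 genes, 12 members and a median of 0.48 for LG against LL, with ORC6 at -0.0091, and 2168 genes, 2 members higher, 0 lower and a median of 0.13 for DP against LL. Raising them to the highest values gave 7 members and a median of 0.35 for LG against LL, with ORC3 (-0.32), ORC6 (-0.56), CDC6 (-0.43), CDC45 (-0.30) and PRIM2 (-0.24) reversed among called members (12 members changed sign in all, 8 of them to below 0), and 2 members higher, 3 lower and a median of -0.047 for DP against LL, with ORC3 (-0.047), MCM4 (-0.053), CDC45 (-1.11) and POLD1 (-0.32) reversed among members called in either form (14 changed sign in all, 11 of them to below 0). Leaving out 1 library gave medians of 0.84 to 1.10, 0.25 to 0.52 and 0.22 to 0.36, 21 to 24, 6 to 7 and 10 to 12 members higher, 0 to 1 lower in DP against LL, and 2403 to 2588, 1739 to 2006 and 3077 to 3425 genes, in the order LG against LL, LG against DP and DP against LL. With the replicate number as a block, 23, 7 and 10 members were higher, as without it, and 2567, 1989 and 3342 genes were called. Same-numbered libraries correlated in their deviations at -0.106 to 0.201, with 3 of 9 pairs over 0.1, and differently numbered ones at -0.223 to 0.0722. All pairs over 0.1 thus share a number. The stages held different goats, and whether a number marks shared handling was not tested. With the low LL values raised to the medians, 7.24% of all genes were called higher in DP than in LL and 7.51% lower. Raised to the highest values, these shares were 6.84% and 8.79%. Where the LL values were raised or the linked amounts subtracted, which form is nearer to the tissue was not tested.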

Other observations

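Of 9 genes of mitosis read as a list beside the members, 3 were called higher in LG than in DP, where 6.38% of all genes tested were called higher. They were CDK1, the kinase that starts mitosis (1.93 ± 0.27), and its cyclins CCNB1 (1.56 ± 0.23) and CCNB2 (1.14 ± 0.18), by limma with adjusted p of 0.00067, 0.00092 and 0.0014. CDK1 measured 1.32, 0.570 and 0.509 scaled FPKM in DP and 8.45, 3.34 and 6.37 in LG, and CCNB1 measured 1.33, 0.884 and 1.18 in DP and 7.57, 3.52 and 5.35 in LG. In both genes the stages did not overlap. The summed level of the 9 genes lay between 10.5 and 12.1 scaled FPKM in LL, between 7.99 and 9.42 in DP and between 19.3 and 32.9 in LG. With the adjusted p alone 8 of the 9 passed for LG above DP, where 18.4% of all genes did. None of the 3 calls was lost with the low LL values raised, which act on this comparison only through the shared fit and scaling.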
